A study of Mus musculus with 4 samples.

Results

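Notch signalling was followed through 10 genes that encode its core parts, the receptors *Notch1* and *Notch2*, the ligands *Dll1*, *Dll3*, *Jag1* and *Jag2*, and the nuclear effectors *Hes1*, *Hes5*, *Hey1* and *Hey2*. They were picked by name as the core of the pathway, with earlier results of these data known. Each matched 1 of the 55573 genes listed per library. All 10 had enough reads to be among the 16832 genes tested. In *Dnmt1*-deficient cells both receptors were more highly expressed than in controls, with *Notch2* at 3.12-fold and *Notch1* at 2.4-fold the control level. The effector *Hes1* rose 2.92-fold and the ligand *Jag1* rose 1.67-fold. No member was called lower. The Delta-type ligands *Dll1* and *Dll3* and the ligand *Jag2* had log2 changes between -0.22 and -0.07, with intervals that include no change.

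The RNA came from the developing mouse brain at embryonic day (E) 16, with the day of insemination counted as E1, from cells sorted for the red fluorescent reporter tdTomato. All embryos carried *Hmx3-Cre* and the *tdTomato* reporter, which stays on in every cell with past *Hmx3-Cre* activity and in its descendants, so that the sort selects by lineage and not by current cell type. Wild type (WT) embryos had functional *Dnmt1*. The knockout (KO) embryos carried in addition the *Dnmt1 loxP2* allele, in which Cre removes exons 4 and 5 and joins exon 3 to exon 6 out of frame. *Dnmt1* encodes the maintenance DNA methyltransferase, and the comparison asks what its loss does to gene expression in immature interneurons of the preoptic area (POA). The labels describe the dissected tissue as the basal telencephalon, while the study's text names the POA. Cells of 12 WT embryos and 6 KO embryos were pooled, and each genotype gave 2 libraries (WT 1, WT 2, KO 1, KO 2). The labels call these biological replicates and the study's text calls them technical duplicates of pooled samples. The p-values given here therefore measure the spread between these libraries, which may be technical.

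Notch receptors are membrane proteins that are activated by ligands of the Delta and Jagged families on a neighbouring cell. Ligand binding leads to cleavage of the receptor, and its intracellular domain enters the nucleus, where it joins the DNA-binding protein RBPJ and Mastermind co-activators to switch on *Hes* and *Hey* genes. HES and HEY proteins are repressors of proneural genes. In the embryonic brain the pathway is known for keeping radial glia and progenitors undifferentiated, for favouring glial over neuronal fate, and for a role of NOTCH3 in the mural cells of vessels.

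Libraries held 8075102 to 9995968 counts. A count of 3 corresponded to 0.294 to 0.372 CPM (counts per 1000000 of the library size after scaling by TMM, the trimmed mean of M-values). WT 1 stood apart, with 8.66% of its counts in the mitochondrial ribosomal RNAs compared with 1.51% to 2.32% in the other 3 libraries, and the WT libraries differed from each other more than the KO libraries did, with a chi-square per degree of freedom of 39.8 compared with 3.54. *Dnmt1* had 3103 and 4557 WT reads and 2383 and 2552 KO reads, a log2 change of -0.56 ± 0.14 (SE) that lay at the threshold (edgeR adjusted p = 0.0511). It was lower in every fit, with a call in 7 of the 10 other fits of the 4 libraries, among them DESeq2 (adjusted p = 0.00843), and in 2 of the 4 fits with a library left out, those without WT 1 (edgeR adjusted p = 1.96e-07) and without WT 2 (edgeR adjusted p = 0.00283) but not without KO 1 (edgeR adjusted p = 0.386) or KO 2 (edgeR adjusted p = 0.521). Reads over the whole gene are only a partial check of a deletion of 2 exons. Of the genes tested, 7.9% differed between genotypes at an adjusted p under 0.05, 7.33% higher and 0.57% lower in KO, so that 92.8% of the calls were higher. When each library was corrected for the length and GC content of the genes, this share was 50.8%.

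Among the 10 members, 4 were called, all of them higher in KO, compared with 7.33% of all genes tested. By role these were 2 of 2 receptors, 1 of 4 ligands and 1 of 4 effectors. The KO libraries were both above both WT libraries for 6 members and both below for 1, and the groups overlapped for 3. Over all genes tested, 53.5% did not overlap, 28.3% above and 25.2% below. The median log2 fold change was 0.79 over the members and -0.03 over all genes tested. Without WT 1 the number of members called was 6, without WT 2 it was 5, without KO 1 it was 3 and without KO 2 it was 2, and in each of these fits every called member was higher in KO. The share of all genes called higher was 14.2%, 11.2%, 5.35% and 5.08% in these 4 fits. In the same libraries all 10 astrocyte markers, 5 of 6 oligodendrocyte markers and 7 of 8 mural cell markers were higher in KO, with the summed astrocyte markers at 262 to 277 CPM in WT and 3668 to 3865 CPM in KO. The part of these cells in the changes of the Notch genes was not tested, and in bulk RNA more cells of a type cannot be told apart from more RNA per cell.

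**Figure D1:**
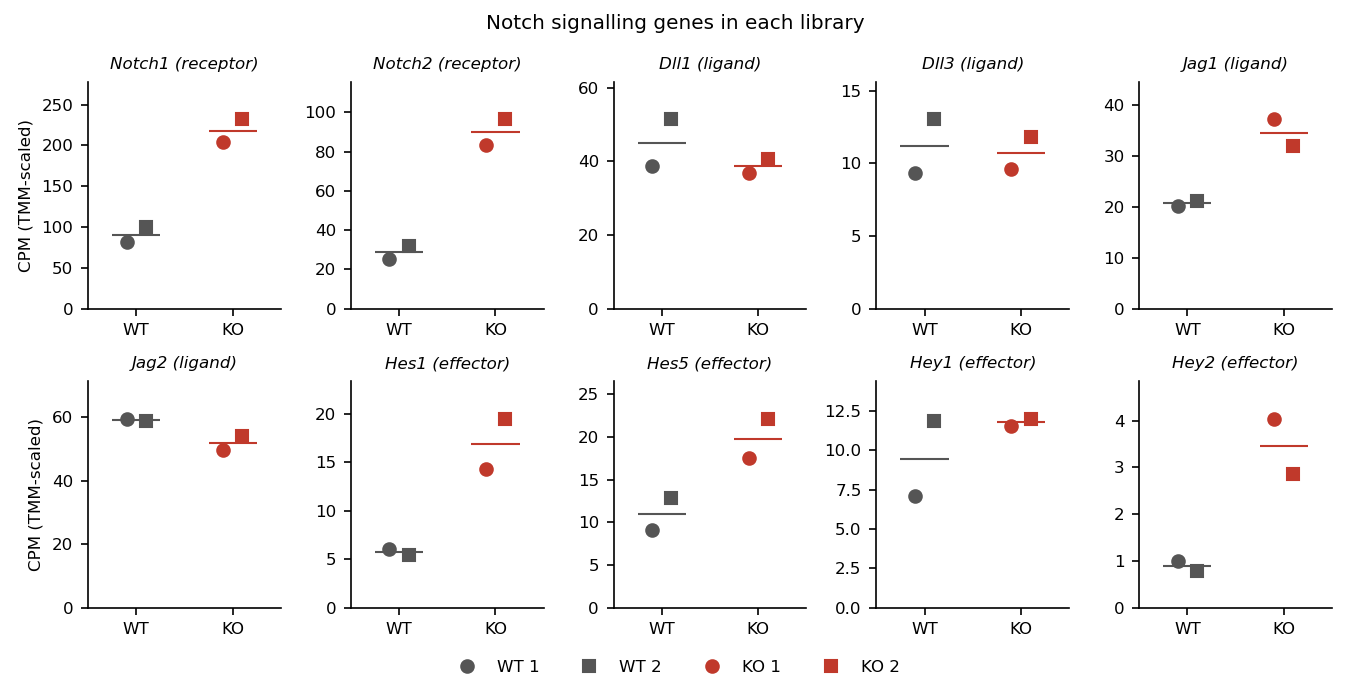
TMM-scaled CPM (vertical axes, each starting at 0) of the 10 genes in the 2 WT libraries (grey) and the 2 KO libraries (red), with circles for replicate 1, squares for replicate 2 and a line at the mean of each genotype. The KO points lie above both WT points for *Notch1*, *Notch2*, *Jag1*, *Hes1*, *Hes5* and *Hey2*, below them for *Jag2*, and overlap them for *Dll1*, *Dll3* and *Hey1*.

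Sequence upstream of the effectors is shown because *Hes* and *Hey* genes are the pathway's direct targets, reached through RBPJ. RefSeq promoter windows (GRCm38.p6) of 300 bases, 250 before and 50 after the transcription start, were matched for 8 of the 10 members, all except *Hes1* and *Hey1*. The core letters of the RBPJ motif, TGGGAA on either strand, occurred in 25.6% of all 32851 windows, and at 2 or more places in 3.79%. The longer form GTGGGAA, which contains the core, occurred in 6.38% of windows and at 2 or more places in 0.256%. Of the matched members, the letters were found in *Hes5* and *Hey2*, 2 places in each and in the longer form at every place, and in no window of the other 6. The bases before the start of *Hes5* (chr4:154960673-154960922, plus strand) and of *Hey2* (chr10:30842802-30843033, minus strand) read as follows, 5′ to 3′ along the gene, with the RBPJ core letters or their reverse complement in capitals.
Hes5: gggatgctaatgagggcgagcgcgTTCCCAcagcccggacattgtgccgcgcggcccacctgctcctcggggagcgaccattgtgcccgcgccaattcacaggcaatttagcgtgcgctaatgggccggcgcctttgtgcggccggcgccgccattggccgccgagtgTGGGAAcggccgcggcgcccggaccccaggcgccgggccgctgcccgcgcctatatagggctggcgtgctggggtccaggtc
Hey2: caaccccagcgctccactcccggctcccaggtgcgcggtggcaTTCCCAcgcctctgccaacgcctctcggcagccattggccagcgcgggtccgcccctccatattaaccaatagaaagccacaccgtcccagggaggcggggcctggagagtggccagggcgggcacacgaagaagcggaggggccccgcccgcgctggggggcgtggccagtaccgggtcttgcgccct
In *Hes5* the longer form lay 226 bases before the start on the opposite strand and 83 bases before it on the gene's strand, counted to its leftmost base. In *Hey2* it lay 207 bases before the start on the opposite strand. The other place, 4 bases before the RefSeq start, falls in a stretch that GENCODE counts as part of the gene and that is not printed. A match of letters describes the window and does not show binding.

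Both receptors were higher in KO. *Notch1* (chr2:26457903-26516663, minus strand, GRCm38) is a receptor of neural progenitors, and its level was 81.7 and 99.7 CPM in WT and 204 and 232 CPM in KO. Each KO library was above both WT libraries. The mean rose from 90.7 ± 12.8 to 218 ± 19.9 CPM (SD, n = 2), a log2 change of 1.26 ± 0.16 (SE) with a 95% interval of 0.89 to 1.63 (edgeR adjusted p = 0.00199). *Notch2* (chr3:98013527-98150361, plus strand), a receptor with the same domain layout that is also expressed in glia and vessels, was at 25.4 and 32.0 CPM in WT and 83.5 and 96.4 CPM in KO. The groups were again apart, and the mean rose from 28.7 ± 4.66 to 89.9 ± 9.13 CPM, a log2 change of 1.64 ± 0.18 with an interval of 1.24 to 2.05 (edgeR adjusted p = 0.000786). Both receptors passed the threshold in all 10 other fits of the 4 libraries and in each of the 4 fits with a library left out, where the log2 fold change ran from 1.12 to 1.40 for *Notch1* and from 1.48 to 1.81 for *Notch2*. Exons of *Notch1* share bases with 2 antisense transcripts, of which the counted one had 7 to 16 reads per library, and exons of *Notch2* share 5.02% of their bases with a same-strand transcript that had 2 to 23 reads. The strand setting of the counting is not given in the sources used here. The receptors had 205 to 2106 reads, and how many of these fell in the shared bases was not tested.

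The ligands did not move together. *Jag1* (chr2:137081456-137116644, minus strand), a Jagged ligand of progenitors and vessels, was at 20.2 and 21.2 CPM in WT and 37.2 and 31.9 CPM in KO. The groups did not overlap, and the mean rose from 20.7 ± 0.658 to 34.6 ± 3.73 CPM, a log2 change of 0.74 ± 0.18 with an interval of 0.32 to 1.16 (edgeR adjusted p = 0.0473). This call lay close to the threshold. It was lost with DESeq2 (adjusted p = 0.0603), with limma-voom (adjusted p = 0.0542), without KO 1 (edgeR adjusted p = 0.407) and without KO 2 (edgeR adjusted p = 0.166), while the log2 fold change stayed between 0.64 and 0.85 in every fit.

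The other Jagged ligand, *Jag2* (chr12:112907819-112929776, minus strand), was at 59.5 and 58.6 CPM in WT and at 49.5 and 54.1 CPM in KO. Both KO libraries were below both WT libraries, but the log2 fold change of -0.19 ± 0.15 did not pass the test (interval -0.53 to 0.15, edgeR adjusted p = 0.487). *Dll1* (chr17:15367354-15376872, minus strand) encodes the Delta-like ligand that nascent neurons present to neighbouring progenitors. Its level was 38.7 and 51.4 CPM in WT and 36.7 and 40.7 CPM in KO, so that the groups overlapped, and the log2 fold change was -0.22 ± 0.19 (interval -0.65 to 0.21, edgeR adjusted p = 0.525). *Dll3* (chr7:28293553-28302238, minus strand), a divergent Delta-like protein known to act within the cell on Notch signalling, was at 9.31 and 13.0 CPM in WT and at 9.63 and 11.8 CPM in KO. The KO values lay inside the WT range, and the log2 fold change was -0.07 ± 0.29 (interval -0.72 to 0.59, edgeR adjusted p = 0.922). For these 3 ligands, changes within the stated intervals could not be detected with 2 libraries per genotype. None of the 3 was called in any of the 14 other fits. Exons of *Dll1* share 20.6% of their bases with an antisense transcript that had 27 to 45 reads per library, and the reads of this pair cannot be told apart without strand.

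Of the effectors, all 4 had a positive log2 fold change and 1 passed the test. *Hes1* (chr16:30064384-30067796, plus strand), the repressor that keeps neural stem cells from differentiating, was at 6.08 and 5.49 CPM in WT and at 14.3 and 19.5 CPM in KO. The lowest KO library was more than any WT library, and the mean rose from 5.78 ± 0.421 to 16.9 ± 3.70 CPM, a log2 change of 1.55 ± 0.28 with an interval of 0.89 to 2.20 (edgeR adjusted p = 0.0126). *Hes1* passed in 13 of 14 other fits and missed the threshold without KO 2 (log2 fold change 1.31, edgeR adjusted p = 0.0799).

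*Hes5* (chr4:154960923-154962371, plus strand), the other main Notch effector of radial glia, was at 9.06 and 12.8 CPM in WT and at 17.5 and 22.1 CPM in KO. The groups were apart, but the log2 fold change of 0.85 ± 0.27 was not called (interval 0.24 to 1.46, edgeR adjusted p = 0.104). It passed in 6 of 14 other fits, among them those without WT 1 (log2 fold change 0.62, edgeR adjusted p = 0.04995) and without WT 2 (1.12, edgeR adjusted p = 0.000472). It did not pass without KO 1 (edgeR adjusted p = 0.123) or without KO 2 (edgeR adjusted p = 0.636). An antisense transcript that covers 31.8% of its exonic bases had at most 7 reads in a library, compared with 73 to 201 reads of *Hes5*. How many of the *Hes5* reads fell in the shared bases was not tested.

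*Hey2* (chr10:30832359-30842801, minus strand), a repressor known from heart and vessel development, had 8 reads in each WT library and 34 and 26 in KO, or 0.993 and 0.784 CPM compared with 4.04 and 2.86 CPM. It had the largest fold change of the 10 members by the edgeR test, at 1.95 ± 0.54 on the log2 scale, and also the widest interval, from 0.70 to 3.20 (edgeR adjusted p = 0.0724). The call was gained in 5 of 13 other fits, 1 of them without WT 1 (edgeR adjusted p = 0.0197), and not without WT 2 (edgeR adjusted p = 0.0527), KO 1 (edgeR adjusted p = 0.547) or KO 2 (edgeR adjusted p = 0.247). *Hey1* (chr3:8663359-8667256, minus strand), its close relative, was at 7.08 and 11.9 CPM in WT and at 11.5 and 12.0 CPM in KO. The KO libraries overlapped WT 2 and lay above WT 1, and the log2 fold change of 0.30 ± 0.31 was not called (interval -0.41 to 1.02, edgeR adjusted p = 0.603).

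**Figure D2:**
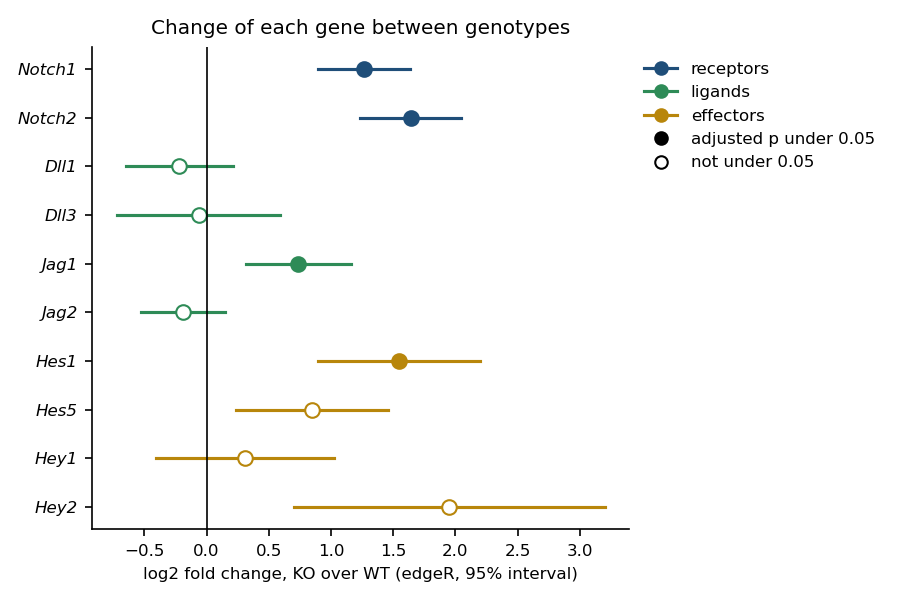
Log2 fold change of KO over WT (horizontal axis) for each of the 10 genes, with the 95% interval of the edgeR fit as a bar, coloured by role, and filled points where the adjusted p was under 0.05. Both receptors, *Jag1* and *Hes1* are filled, with values from 0.74 to 1.64, the intervals of *Hes5* and *Hey2* lie above 0 without a call, and those of *Dll1*, *Dll3*, *Jag2* and *Hey1* cross 0.

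To compare the genes with each other, levels were set per kilobase (kb) of merged exons. In WT the order by mean CPM per kb was *Dll1* (10.7 ± 2.13), *Jag2* (8.47 ± 0.0880), *Hes5* (8.03 ± 1.96), *Notch1* (6.37 ± 0.898), *Dll3* (3.92 ± 0.923), *Jag1* (3.55 ± 0.113), *Hey1* (2.90 ± 1.04), *Hes1* (2.84 ± 0.207), *Notch2* (2.67 ± 0.432) and *Hey2* (0.193 ± 0.0322). In this order *Dll1* from *Jag2*, *Notch1* from *Dll3* and *Notch2* from *Hey2* did not overlap in the ranges of their 2 libraries, and all other neighbours did. The gap between *Dll1* and *Jag2* was no larger than their summed SDs, and *Dll1* overlapped *Hes5*. In KO the order by mean CPM per kb was *Notch1* (15.3 ± 1.40), *Hes5* (14.5 ± 2.42), *Dll1* (9.18 ± 0.673), *Notch2* (8.34 ± 0.847), *Hes1* (8.29 ± 1.81), *Jag2* (7.43 ± 0.469), *Jag1* (5.93 ± 0.640), *Dll3* (3.76 ± 0.535), *Hey1* (3.60 ± 0.102) and *Hey2* (0.752 ± 0.181). Here *Notch1* overlapped *Hes5*, the 4 genes from *Dll1* to *Jag2* overlapped from neighbour to neighbour, and *Dll3* overlapped *Hey1*. The leading genes depended on the length used. Per kb of coding length *Hes5* was first in both genotypes, and only 4 of 20 positions stayed the same.

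Summed per kb of merged exons, the receptors were at 8.10 and 9.98 CPM per kb in WT and at 22.1 and 25.2 in KO. The ligands were at 24.5 and 28.8 CPM per kb in WT and at 25.6 and 27.0 in KO, within the WT range. The effectors were at 12.0 and 15.9 CPM per kb in WT and at 24.2 and 30.1 in KO. The ratio of receptors to ligands per kb was 0.331 and 0.346 in WT and 0.863 and 0.933 in KO. Within the Jagged ligands, *Jag2* was 2.46 and 2.32 times *Jag1* per kb in WT and 1.11 and 1.42 times in KO. These sums and ratios were not tested, since they were formed with the values known.

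**Figure D3:**
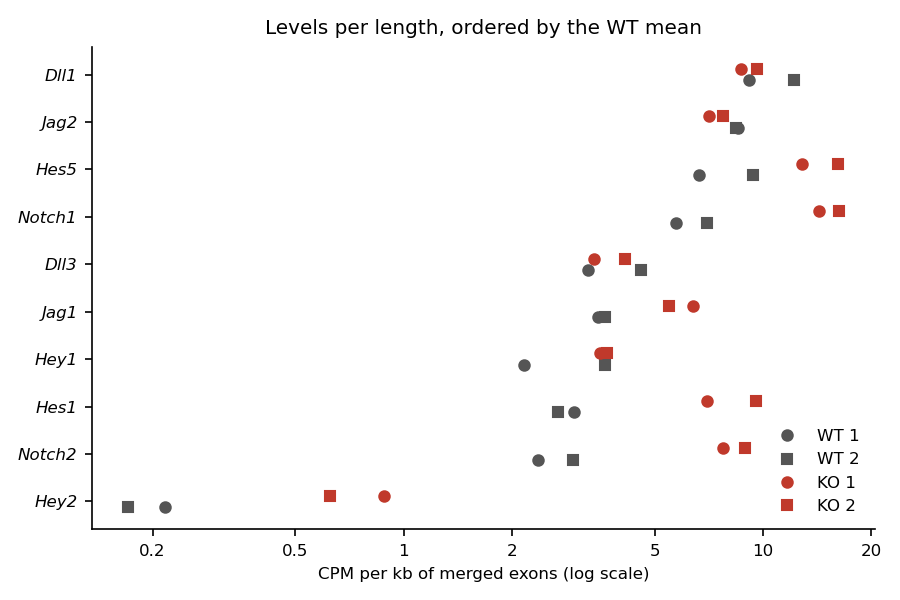
Level of each gene in CPM per kb of merged exons (horizontal log axis), ordered by the WT mean, with WT libraries in grey and KO libraries in red. *Dll1* has the highest WT mean at 10.7 and *Notch1* the highest KO mean at 15.3 CPM per kb, each overlapping *Hes5*, and *Hey2* is lowest in both genotypes.

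Around these members, 64 other genes of the pathway in 7 lists were examined, and 56 of them were tested. Of these, 5 were higher and 2 lower in KO, where 7.33% and 0.57% of all genes tested were. This balance turned with the processing, with 8 higher and 12 lower after the length and GC correction, a fit in which 10.8% of all genes were higher and 10.4% lower. The median log2 fold change of -0.07 was close to that of all genes tested, -0.03. Among the other receptors and ligands, 1 of 6 was higher and 1 lower. *Notch3*, the receptor of mural cells that glia also express, had 80 and 110 WT reads and 344 and 428 KO reads, a log2 change of 2.08 ± 0.19 (edgeR adjusted p = 0.000354). All 3 of the receptors *Notch1*, *Notch2* and *Notch3* were therefore higher, while *Notch4*, the endothelial receptor, named here after its values were seen, had a log2 change of -0.02 (edgeR adjusted p = 0.983). *Dlk1*, a Delta-like protein that lacks the canonical receptor-binding domain, fell from 20.3 ± 1.34 to 9.83 ± 2.14 CPM (log2 fold change -1.04 ± 0.25, edgeR adjusted p = 0.0414).

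In the list of ligand endocytosis and receptor glycosylation, 1 of 9 genes was called. This was *Lfng*, the Fringe glycosyltransferase that modifies Notch receptors and shifts their preference from Jagged to Delta ligands, with 41 and 55 reads in WT and 604 and 718 in KO. Its mean rose from 5.24 ± 0.212 to 75.4 ± 5.14 CPM, a log2 change of 3.84 ± 0.19 (edgeR adjusted p = 1.15e-05), a larger increase than that of any of the 10 members. None of the 10 genes of receptor cleavage, which include the gamma-secretase subunits, was called by edgeR, and none of the 10 genes of receptor turnover, where 7.9% of all genes tested were. At an unadjusted p under 0.05 there were 1 and 2, compared with 22.7% of all genes, and DESeq2 and limma-voom called 0 of either list. With the length and GC correction 2 genes of cleavage (1 higher, 1 lower) and 3 of turnover (1 higher, 2 lower) were called, when 21.2% of all genes were. Without WT 1 the numbers were 1 and 2, and without WT 2 they were 2 and 3. Single calls arose with at least 10 counts per library in the cleavage list and with library size only or the replicate block in the turnover list, each of them higher.

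Of the 14 genes of the nuclear complex, 2 were higher, where 7.33% of all genes tested were. Of these, *Maml2*, a Mastermind co-activator, rose from 36.0 ± 2.06 to 56.6 ± 3.54 CPM (log2 fold change 0.65 ± 0.15, edgeR adjusted p = 0.0406). With the length and GC correction 2 genes of this list were higher and 2 lower, when 10.8% and 10.4% of all genes were. *Rbpj* itself, named here after its values were seen, had a log2 change of -0.53 ± 0.22 that did not pass (edgeR adjusted p = 0.209).

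Among further *Hes* and *Hey* genes and feedback targets, 3 of 7 were expressed enough to test and 1 was higher. *Heyl*, a HEY-family effector of NOTCH3 in vessels, had 16 and 21 reads in WT and 82 and 80 in KO (log2 fold change 2.19 ± 0.34, edgeR adjusted p = 0.0059). *Nrarp*, a feedback inhibitor named after its values were seen, was at 5.75 ± 2.68 CPM in WT and 12.7 ± 1.66 CPM in KO without passing the test (log2 fold change 1.13 ± 0.36, edgeR adjusted p = 0.111). Of the 8 proneural genes, whose expression HES proteins are known to repress, 4 were tested and 1 was called lower, where 0.57% of all genes tested were. This was *Insm1*, a zinc finger factor of newborn neurons and intermediate progenitors, which fell from 62.6 ± 4.15 to 38.8 ± 4.45 CPM (log2 fold change -0.69 ± 0.16, edgeR adjusted p = 0.0382). At an unadjusted p under 0.05, 3 of the 4 were lower, when 8.01% of all genes were. The number called lower was 3 with the replicate block, without a filter or with the length and GC correction, where 3.68%, 1.91% and 10.4% of all genes were lower. It was 0 with library size only or at least 10 counts in every library, where the shares were 0.6% and 0.364%.

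*Notch3*, *Lfng* and *Heyl* were called in all 14 other fits. *Dlk1*, *Maml2* and *Insm1* lost their call without KO 1 and without KO 2, with edgeR adjusted p up to 0.321, 0.369 and 0.449. *Dlk1* and *Insm1* also lost it when every library had to hold 10 or more counts of a gene, and *Insm1* with library size only. Without WT 1, 9 of the pathway genes were higher and 10 lower, when 21.3% of all genes tested were called in either direction. Without WT 2, 8 were higher and 11 lower, when 23.3% of all genes were called. Without KO 1, 4 were higher and 1 lower, when 6% of all genes were called, and without KO 2, 4 were higher and 0 lower, when 5.37% were.

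**Figure D4:**
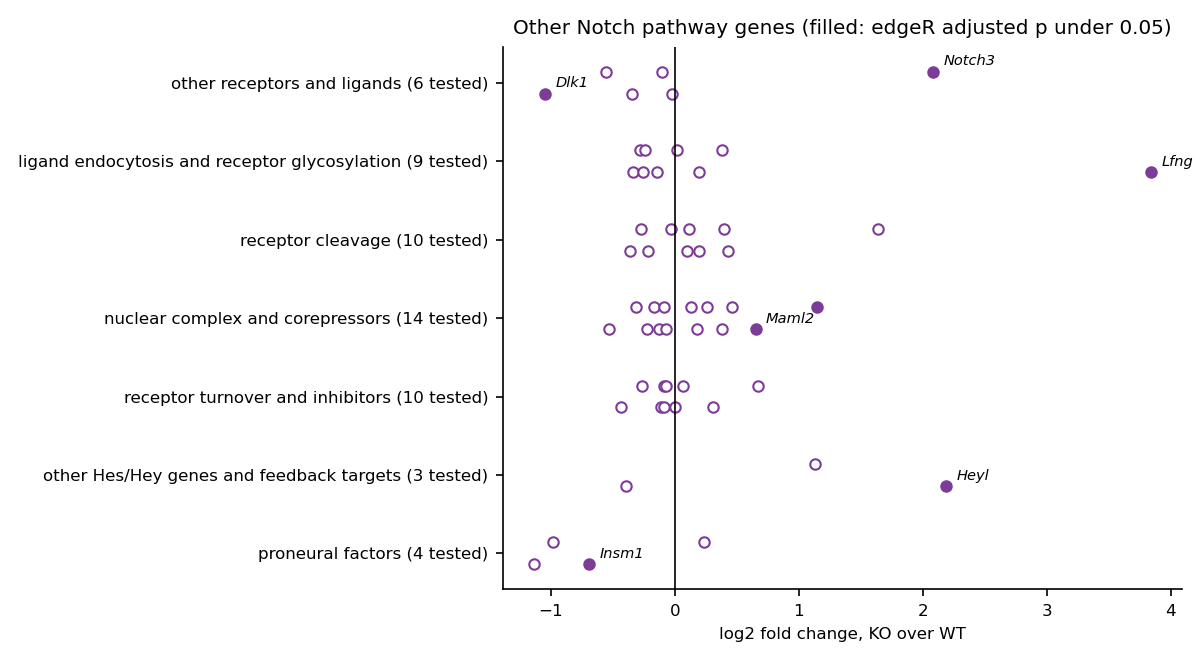
Log2 fold change of KO over WT (horizontal axis) for the 56 tested genes of 7 lists of Notch pathway genes, 1 point per gene, filled where the edgeR adjusted p was under 0.05, with 6 of the filled points named. *Lfng* at 3.84, *Heyl* at 2.19 and *Notch3* at 2.08 lie farthest to the right, and *Dlk1* at -1.04 and *Insm1* at -0.69 are the filled points below 0.

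Markers of other cell types moved with the genotype alongside the Notch genes. All 10 astrocyte markers were higher in KO, and their summed level was 262 to 277 CPM in WT and 3668 to 3865 CPM in KO. *Aqp4* had 0 and 4 reads in WT and 591 and 567 in KO, *Aldh1l1* had 56 and 113 compared with 864 and 1044, and *Gfap* had none in WT and 149 and 198 in KO, at least 59.3-fold higher against a floor of 3 counts per library. Of 6 oligodendrocyte markers 5 were higher, among them *Mbp*, *Mag*, *Mobp* and *Cnp*, with a summed level of 128 to 152 CPM in WT and 541 to 560 CPM in KO. Of 8 mural cell markers 7 were higher, among them *Pdgfrb*, *Rgs5* and *Kcnj8*, with a summed level of 305 to 325 CPM in WT and 700 to 758 CPM in KO. The uncalled gene, *Cspg4*, is shared with the oligodendrocyte precursor list, and without it the other 7 summed to 53.4 to 61.5 CPM in WT and 379 to 380.0 CPM in KO. *Acta2*, the smooth muscle actin of this list, named after its values were seen, had no reads in WT and 652 and 800 in KO. Of the Notch genes called higher, *Notch1*, *Notch2*, *Notch3*, *Jag1*, *Hes1* and *Heyl* are known to be expressed in glia or vessel walls as well as in neural progenitors. Whether such cells had a part in the changes of the Notch genes was not tested.

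Lists for the labelled lineage and for neural progenitors changed in their calls with the fit. Of 8 GABAergic and POA lineage markers none was called by edgeR, DESeq2 or limma-voom and 2 were lower at an unadjusted p under 0.05. All 8, however, had a negative log2 fold change, and 5 had both KO libraries below both WT libraries, compared with 25.2% of all genes tested. Their summed level was 1331 to 1476 CPM in WT and 1127 to 1245 CPM in KO. After the length and GC correction 4 of them were lower, 6 with the replicate block as well, and 3 without WT 2, fits in which 10.4%, 11.6% and 12% of all genes tested were lower. Of the same list, *Hmx3* was present in every library with 604 to 919 reads, as were *Gad1* and *Gad2* with 1066 reads or more. Of 8 neuronal markers 3 were lower in KO, compared with 0.57% of all genes tested. These were *Syt1*, *Stmn2* and *Elavl4*. *Tubb3*, *Snap25* and *Rbfox3*, the first of this list, had log2 changes of -0.47, -0.75 and 0.03 without a call. The summed level of the 8 was 5308 to 5915 CPM in WT and 3866 to 3963 CPM in KO. Of the 8, 7 had both KO libraries below both WT libraries, compared with 25.2% of all genes tested. The number called lower was 6 without WT 1, 7 without WT 2, 1 without KO 1 and 1 without KO 2, fits in which 7.15%, 12%, 0.656% and 0.288% of all genes tested were lower. It was 5 with the replicate block, 6 with the length and GC correction, and 7 with both or without a filter, where the shares were 3.68%, 10.4%, 11.6% and 1.91%. Of 8 radial glia and progenitor markers, a group in which Notch activity is high, 1 was higher, *Hopx*, and the first 3 of the list, *Fabp7*, *Vim* and *Nes*, had log2 fold changes of 0.40, 0.26 and 0.27 without a call. The summed level of these 8 was 1449 to 1587 CPM in WT and 1911 to 2012 CPM in KO. Of the 8, 7 had both KO libraries above both WT libraries, compared with 28.3% of all genes tested. The number called higher was 5 after the length and GC correction, 4 with the replicate block or without WT 1, 6 without WT 2, and 0 without KO 1 or without KO 2, and where the correction was made or WT 2 was left out 1 was called lower. The shares of all genes called higher were 10.8% with the correction, 9.65% with the block, and, without WT 1, WT 2, KO 1 or KO 2, 14.2%, 11.2%, 5.35% and 5.08%. None of 6 markers of dividing cells (*Mki67*, *Top2a* and *Ccnb1* among them) was called by edgeR, DESeq2 or limma-voom and 1 was lower at an unadjusted p under 0.05, with a summed level of 406 to 419 CPM in WT and 390 to 408 CPM in KO. Of 6 oligodendrocyte precursor markers 1 was higher, *Olig2*, while *Pdgfra*, *Cspg4* and *Olig1* were not called, and the summed level was 1488 to 1558 CPM in WT and 1888 to 1999 CPM in KO. All 6 had both KO libraries above both WT libraries, and the number called higher was 3 without WT 1, 5 without WT 2, 4 with the replicate block or with the length and GC correction, and 0 without KO 1 or without KO 2, beside the same shares of all genes.

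The remaining lists were at low levels. Endothelial markers, 7 of 8 tested and none called by edgeR, DESeq2 or limma-voom (4 at an unadjusted p under 0.05, 2 in each direction), had 18 and 32 reads of *Cldn5*, 30 and 14 of *Pecam1* and 11 and 10 of *Cdh5* in WT and 7 and 10, 12 and 36, and 9 and 8 in KO, and summed to 21.4 to 21.6 CPM in WT and 25.3 to 27.3 CPM in KO. Microglial markers, 6 of 7 tested, summed to 26.6 to 30.4 CPM in WT and 51.5 to 58.4 CPM in KO, with *Csf1r* higher and *Cx3cr1* and *P2ry12* not called. The call of *Csf1r* was lost with limma-voom (adjusted p = 0.0534). Of the 6, 5 were higher at an unadjusted p under 0.05, when 14.6% of all genes were. The number called higher was 0 with limma-voom and 2 with DESeq2, where 7.21% and 7.4% of all genes were higher. Choroid plexus markers summed to at least 43.4 CPM in WT and to at most 1.78 CPM in KO, nearly all of the WT sum being *Ttr*, which was lower in KO (log2 change -5.53 ± 0.30, edgeR adjusted p = 1.77e-05). *Folr1* and *Kcne2* had at most 9 reads in a library. Erythroid markers, 3 of 4 tested, summed to 25.6 to 30.7 CPM in WT and 16.5 to 17.3 CPM in KO, with *Hbb-bs* lower and *Hba-a1* and *Alas2* not called. Ependymal markers, 2 of 5 tested (*Foxj1* and *Rarres2*) and none called by edgeR, DESeq2 or limma-voom or at an unadjusted p under 0.05, summed to at most 9.91 CPM in a library, and *Tmem212* had no reads.

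**Figure D5:**
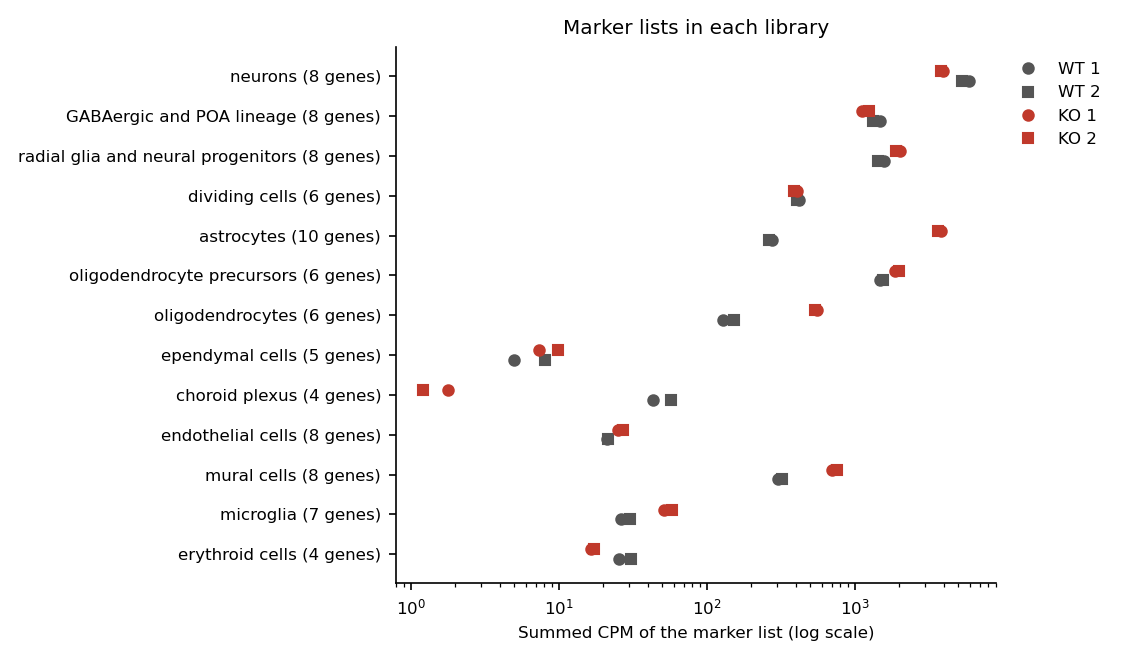
Summed TMM-scaled CPM (horizontal log axis) of 13 lists of cell type markers in each library, with WT libraries in grey and KO libraries in red. Astrocyte markers lie at 262 to 277 CPM in WT and 3668 to 3865 CPM in KO, mural cell and oligodendrocyte markers are also higher in KO, and the dividing cell markers of the 2 genotypes lie within 390 to 419 CPM.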

How the data were processed

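Each library had 1 deposited list of raw counts, with 1 Ensembl gene per line and no normalization by the authors. The submitters' processing notes name CASAVA 1.8.2, STAR 2.5.2a, featureCounts 1.5.0-p1 and the build mm10. The annotation release and strand setting are not given in the sources used here. Of 55573 genes, 55480 were matched to GENCODE M21 (GRCm38) for symbols, positions and lengths. Promoters came from RefSeq. After edgeR's expression filter 16832 genes were tested by the quasi-likelihood method of edgeR 4.0.16 (with R 4.3.3 and limma 3.58.1) on TMM-scaled counts, with genotype as the only term and Benjamini-Hochberg adjustment over all of them. Standard errors were derived from the log2 fold change and the F statistic.

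Alternatives were DESeq2 1.42.0, limma-voom, other scalings (DESeq2 size factors, library size, upper quartile), a filter of at least 10 counts per library or none, a block for the replicate number, offsets for length and GC trends (robust regression on splines with 5 degrees of freedom), both together, and each library left out, where the lone library was assumed to vary like the other genotype. In a simulation with 200 genes shifted by a log2 value of 2, edgeR recovered 85.3% of the 190 that were tested. Of its calls there 5.81% were false, compared with 14.4% with the block. Whether these rates hold for the libraries themselves, where the WT pair differed more than the KO pair, was not tested.

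The members and lists were chosen with earlier results of these data known. The genes named are the 10 members, *Dnmt1*, the called genes of 7 pathway lists (up to 5 each) and the first 3 genes of each of 13 marker lists. Values of 2 genes that fall under this rule are not reported here, though list counts and sums include them. *Notch4*, *Rbpj*, *Nrarp* and marker genes beyond the first 3 were named after their values were seen, and the promoter search and the sums and ratios per kb were also added then.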

Additional observations from a re-analysis of the deposited data

How the results depend on the processing

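Wherever they were tested, the 10 members kept their direction under the 10 alternatives with 4 libraries, except *Dll3* with library size only (log2 fold change 0.032), a scaling that moved the median of all genes from -0.03 to 0.08. With a library left out, the log2 fold change of *Dll3* ran from -0.29 to 0.19 and that of *Hey1* from -0.018 to 0.72. The number of members called was 5 with library size only and with the replicate block, 6 without a filter and with the length and GC correction, 3 with DESeq2 and limma-voom, and 2 to 6 with a library left out. The number of other pathway genes called was 12 with the replicate block, 20 with the length and GC correction, 20 with both, and 4 to 19 with a library left out. The number of marker genes called was 30, and 49 with the length and GC correction, 51 with both, and 23 to 51 with a library left out. The number of all genes called was 1329, and 2363 without a filter, 883 with at least 10 counts in every library, 2244 with the replicate block, 3567 with the length and GC correction, 3858 with both, and 951 to 4209 with a library left out. As a share of the genes tested, calls in either direction made up 7.9%. They made up 7.88% without a filter, 6.18% with at least 10 counts in every library, 8.87% with DESeq2 and 7.81% with limma-voom. With library size only the share was 10.6%, with the block 13.3%, with the correction 21.2% and with both 22.9%. The share of these calls higher in KO was 92.8%, and 75.8% without a filter, 72.4% with the block, 50.8% with the correction and 49.4% with both. In the order of levels, 10 of 20 positions stayed with the longest transcript and 4 of 20 with coding length in place of merged exons, by the construction of the measure. Otherwise the cause of these differences was not tested. The replicate numbers are not stated to mark shared litters or days, and the deviations of WT 1 and KO 1 from their group means correlated at 0.137 over 16832 genes. With the block, *Hes5* was gained as a call (edgeR adjusted p = 0.0274, in a fit with 14.4% false calls in simulation) and no member call was lost. *Hey2*, with 8 reads per WT library, was not tested under the filter of at least 10 counts and had the widest interval of the members.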
